A study of Mus musculus with 18 samples.

Results

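Cells carrying the aP2-Cre mark in hedgehog-driven muscle tumors of mice were compared by whether they also carried Pecam1 on their surface, an adhesion molecule of endothelial cells, leukocytes and platelets. The comparison set 4 arrays of Tom+/Pecam1+ cells against 4 arrays of Tom+/Pecam1- cells, 8 of the 18 arrays of the study, chosen by their labels. Both populations came from tumors of mice with the genotype aP2-Cre/+;tdTomato/+;SmoM2/+ (strain label BJ;SJL;B6.129). Each tumor repeat also gave an array of Tom-/Pecam1- cells (4 arrays, same genotype). Repeats 1 to 3 came from mice at postnatal day 48 and repeat 4 from day 38, and repeats are called biological in the labels. Normal sternocleidomastoid muscle, a neck muscle, of aP2-Cre/+;tdTomato mice without SmoM2 at day 21 (strain label B6;SJL) gave 3 arrays of Tom+ and 3 of Tom- cells, which were not divided by Pecam1. Tissue was digested with collagenase B and Dispase II for 1 hour before flow sorting, and RNA was amplified before it was hybridised.

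aP2 is another name of Fabp4, a fatty acid binding protein of adipocytes and capillary endothelium, and its promoter drives the Cre here. The Tomato mark therefore records past or present Cre activity and not a cell type. Tumors of this genotype carry SmoM2 in the cells where that allele recombined, which the mark does not show. SmoM2 is a form of Smoothened that signals without ligand. In the normal pathway hedgehog ligands bind Ptch1, which releases Smoothened, and Gli transcription factors then switch on targets that include Gli1 and the inhibitors Ptch1 and Hhip. Endothelial cells line blood vessels and are known by VE-cadherin (Cdh5), the receptors for vascular endothelial growth factor (VEGF) and ETS and SoxF transcription factors. Rhabdomyosarcoma is a tumor with features of the skeletal muscle lineage, which is specified by Pax7, Myf5, Myod1 and Myog.

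Values are deposited log2 intensities, and a difference is the Tom+/Pecam1+ mean minus the Tom+/Pecam1- mean on the log2 scale. Means are given with SD over 4 arrays in each population, few enough to limit their precision. For tumor arrays the SDs, and whether arrays overlap, come from values with the mean of each repeat taken out. Spread between repeats that the populations share is not in them, so they can understate the spread between animals. Of 14036 genes tested, 5041 (35.9%) passed an adjusted p of 0.05 in limma's moderated test with the repeat number as a block. They were 2227 genes higher in Tom+/Pecam1+ cells (15.9%) and 2814 lower (20.0%), and 918 of the higher and 1285 of the lower genes differed at least 2-fold. The values of the 4 arrays of each population did not overlap in 6315 genes (45.0%). Where single arrays matter they are called positive arrays 1 to 4 (Tom+/Pecam1+) and negative arrays 1 to 4 (Tom+/Pecam1-), by repeat. The median difference over all genes was -0.02. Centring each array on its median moved it to 0.09 and turned the division into 3030 higher and 2237 lower genes, so that the share of higher genes went from 44.2% to 57.5%. Differences much smaller than 0.1 in size therefore have no settled direction. A level below the 40th percentile of an array's genes (5.06 to 5.15 over these 8 arrays) is called dim here, and a fold against a dim level is poorly measured on that side. This holds for higher genes that were dim in Tom+/Pecam1- cells as for lower ones, also where it is not repeated. In bulk samples like these, fewer cells of a type and less RNA per cell cannot be told apart.

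The Tom+/Pecam1+ array of repeat 4, from day 38, stood apart from the other 3. The mean level over 27 endothelial junction and surface genes was 9.98 in it and 10.19 to 10.40 in repeats 1 to 3, and the mean over 20 macrophage and monocyte genes was 6.69 against 5.63 to 5.72. Its mean over 10 measured pan-leukocyte genes was 6.73 against 5.53 to 5.71, and that over 11 measured Pax and myogenic regulatory genes 5.83 against 5.38 to 5.56. The difference within a repeat was smallest in repeat 4 for 1924 of the 5041 genes (38.2%), against 912, 1163 and 1042 genes in repeats 1, 2 and 3. By direction, 4917 of the 5041 genes differed the same way within each of the 4 repeats and the other 124 within 3 of them, which the choice of genes by a test over these repeats favours. With the day 48 repeats alone 5343 genes passed. Age and array cannot be told apart for repeat 4, since 1 repeat was taken at day 38. In the deposited tumor values the mean of each repeat over the 3 populations had also been taken out. A level in a positive array therefore depends on the Tom+/Pecam1- and Tom-/Pecam1- arrays of its repeat as well, and their part here was not tested. Differences within a repeat are not changed by that step.

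Pecam1, on which the cells were sorted, was the check of the labels. Its level was 11.98, 11.96, 12 and 11.57 in Tom+/Pecam1+ repeats 1 to 4 and 6.99, 7.05, 7.43 and 6.94 in Tom+/Pecam1- repeats 1 to 4. It was 27.4-fold higher (11.88 ± 0.21 against 7.10 ± 0.23, adjusted p = 2.11e-07) with no overlap, which follows from the sort. Fabp4, the gene whose promoter drives the Cre, was 7.59-fold higher in Tom+/Pecam1+ cells (12.19 ± 0.58 against 9.27 ± 0.13, adjusted p = 0.000124). Both populations carried the mark, so the present level of Fabp4 differed within the marked cells.

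**Figure D1:**
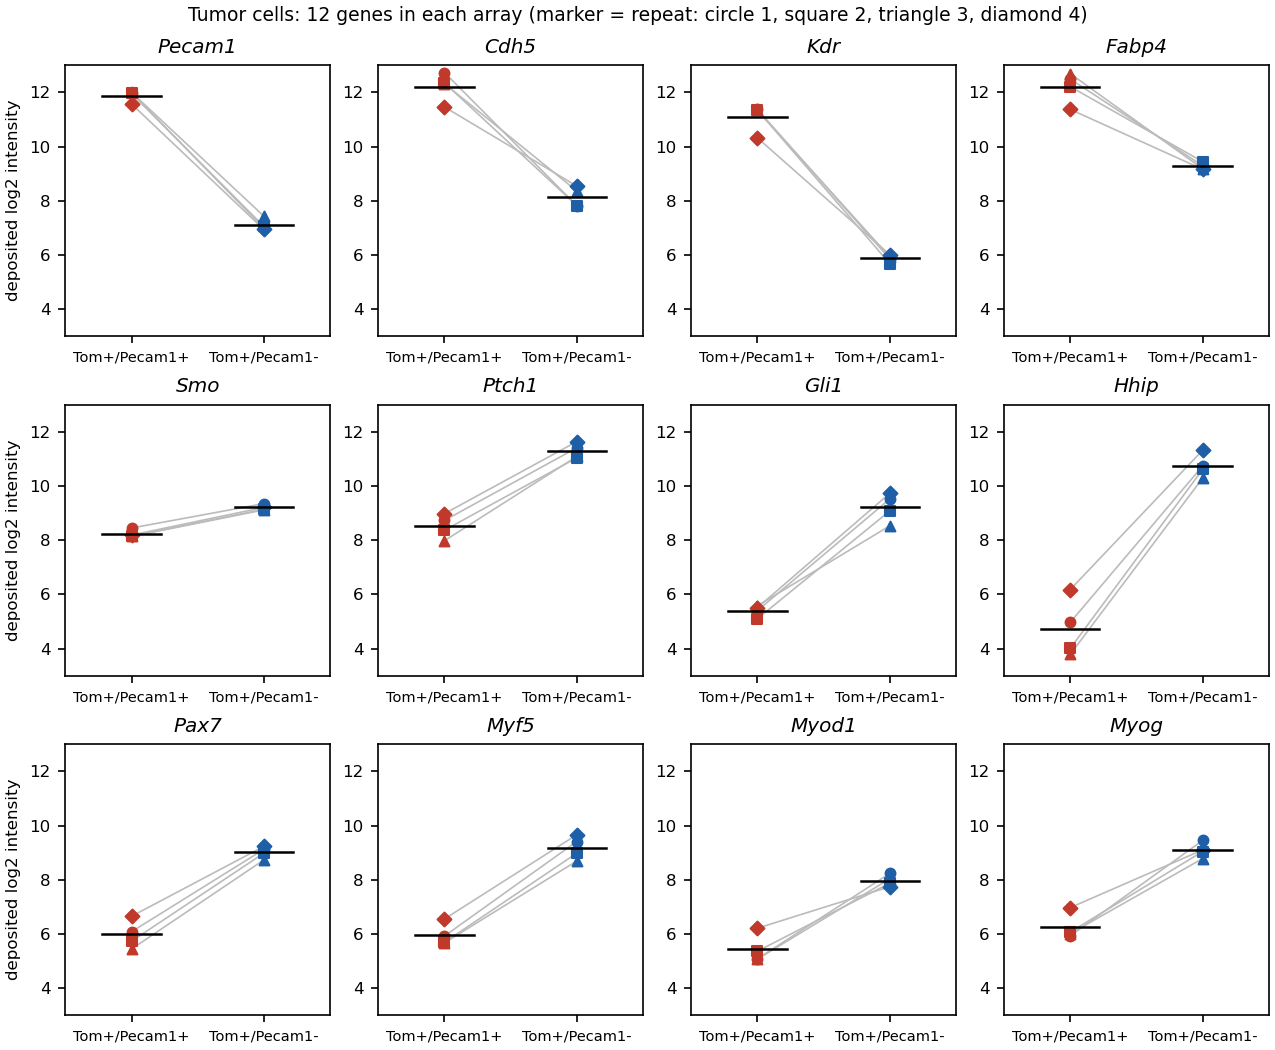
Deposited log2 intensity (y axis) of 12 genes in each array of Tom+/Pecam1+ (red) and Tom+/Pecam1- (blue) tumor cells, with marker shapes for repeats 1 to 4, grey lines joining the arrays of a repeat and black bars at the means. Pecam1, Cdh5, Kdr and Fabp4 are higher in the 4 Tom+/Pecam1+ arrays and the other 8 genes are higher in the 4 Tom+/Pecam1- arrays, without overlap.

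The Tom+/Pecam1+ cells carried the blood endothelial genes. Of 27 genes of endothelial junctions and surface that were measured and tested, 27 were higher and none lower (median difference 3.66, against -0.02 over all genes). The 2 populations did not overlap in any of them, where 45.0% of all genes did not overlap. Cdh5, the adhesion molecule of endothelial junctions, was at 12.73, 12.35, 12.32 and 11.46 in Tom+/Pecam1+ repeats 1 to 4 and at 7.82, 7.82, 8.36 and 8.54 in Tom+/Pecam1- repeats 1 to 4. Repeat 4 was the lowest of the positive arrays and the highest of the negative ones, and still they lay far apart. The difference was 16.9-fold (adjusted p = 4.66e-06). Cldn5, a claudin of tight junctions, was 21-fold higher (9.09 ± 0.10 against 4.70 ± 0.16, adjusted p = 7.26e-08). Nos3, the endothelial nitric oxide synthase, was 11.5-fold higher, the vessel guidance receptor Robo4 25.3-fold, the adhesion molecule Esam 20.6-fold and the adaptor She 20.5-fold. Among the 10 largest differences, ranked over genes with a proper symbol whose arrays did not overlap, were Mall (5.74), Myct1 (5.62), the adhesion receptor Adgrl4 (5.58), Clic5 (5.34), the sialomucin Podxl (5.23), Gimap4 (5.21) and Cyyr1 (5.12). In Tom+/Pecam1- cells the means of Cldn5 (4.70), Robo4 (5.04), She (4.18), Myct1 (4.82) and Clic5 (4.49) were dim. Their differences are poorly measured on that side.

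Endothelial transcription factors went the same way, with smaller differences. Of 22 measured genes 21 were tested and 19 were higher, with a median of 1.83. Bcl6b, a repressor found in endothelium, was 21.1-fold higher (9.23 ± 0.10 against 4.83 ± 0.27, adjusted p = 1.2e-07). The ETS factor Erg, which maintains endothelial identity, was at 10.35, 10.23, 10.64 and 10.18 in Tom+/Pecam1+ repeats 1 to 4 and at 5.59, 5.59, 6.14 and 5.77 in Tom+/Pecam1- repeats 1 to 4, 23.9-fold higher. The positive arrays lay above the negative ones in every repeat, by more than the spread within either population. The SoxF factors Sox17 and Sox7 were 9.35-fold and 15.9-fold higher, and the ETS factor Elk3 5.09-fold. Bcl6b and Sox7 were dim in Tom+/Pecam1- cells (means of 4.83 and 4.89), so their folds are poorly measured on that side. Lyl1 and Foxc2 did not pass the threshold (0.53 and -0.36, adjusted p = 0.221 and 0.104), though Foxc2 was lower without negative array 3 (-0.50, adjusted p = 0.0412). Etv2, an early switch of the endothelial lineage, was too dim in both populations to be tested.

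VEGF receptors and ligands were divided between the populations. The 5 VEGF receptors and co-receptors were higher in Tom+/Pecam1+ cells (median 3.80). Kdr, the main signalling receptor, was at 11.37, 11.35, 11.34 and 10.32 in Tom+/Pecam1+ repeats 1 to 4 and at 5.86, 5.68, 5.93 and 6.01 in Tom+/Pecam1- repeats 1 to 4, 37.5-fold higher (adjusted p = 7.91e-07). Repeat 4 was about 1 log2 unit below the other positive arrays and still far above the negative ones. Flt1, which also binds VEGF and limits its action, was 44.1-fold higher (11.54 ± 0.31 against 6.08 ± 0.36), Flt4, the receptor for Vegfc, 13.9-fold and the co-receptor Nrp2 4.32-fold. Nrp1, which mesenchymal cells also carry, differed least in this list (10.82 ± 0.26 against 10.10 ± 0.06, 1.65-fold, adjusted p = 0.00841). Among the 5 ligands the order was mixed. Vegfa, the ligand of Kdr, was 4.16-fold lower in Tom+/Pecam1+ cells (6.53 ± 0.34 against 8.59 ± 0.35, adjusted p = 0.000137) and Pgf, a ligand of Flt1, 6.14-fold lower (5.77 ± 0.98 against 8.39 ± 0.48, adjusted p = 0.00211). Vegfc was 5.77-fold higher (9.64 ± 0.65 against 7.11 ± 0.16, adjusted p = 0.000309). Vegfb and Vegfd did not pass (adjusted p = 0.0676 and 0.101), and without the block 4 of the 5 ligands were lower. Without negative array 4 Vegfd was lower by 1.41 (adjusted p = 0.00454).

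Angiopoietin 1 and its receptor were on opposite sides. Angpt1, the ligand that stabilises vessels through Tek, was at 3.68, 3.73, 3.21 and 4.03 in Tom+/Pecam1+ repeats 1 to 4 and at 8.06, 8.12, 7.83 and 7.42 in Tom+/Pecam1- repeats 1 to 4. The positive values were dim, so the 18.3-fold difference has a poorly measured lower side (adjusted p = 1.22e-06). Tek was 22-fold higher in Tom+/Pecam1+ cells (10.80 ± 0.45 against 6.34 ± 0.20, adjusted p = 1.55e-06), the related receptor Tie1 29.5-fold and Ptprb, the phosphatase that acts on Tek, 34.3-fold. Angpt4 was lower by 1.02 (adjusted p = 0.00163), and Angpt2, the antagonist of Angpt1, did not pass (7.99 ± 0.45 against 7.48 ± 0.42, adjusted p = 0.182) but was higher without positive array 4 (0.78, adjusted p = 0.0365). Platelet-derived growth factors showed a like division. Pdgfb, with which endothelium recruits pericytes, was 8.75-fold higher (8.80 ± 0.22 against 5.67 ± 0.13, adjusted p = 5.82e-07) and Pdgfd 8.35-fold higher, while their receptor Pdgfrb was 11.1-fold lower (adjusted p = 1.16e-05). Pdgfc was 7.32-fold lower and the receptor Pdgfra 11.5-fold lower (5.53 ± 0.14 against 9.05 ± 0.54).

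Sprouting, arterial, venous and capillary genes were each measured among the Tom+/Pecam1+ cells. Of 17 sprouting and tip cell genes 10 were higher and 1 lower (median 0.97). Dll4, the Notch ligand of sprouting and arterial endothelium, was 20.9-fold higher (9.18 ± 0.22 against 4.80 ± 0.16, adjusted p = 8.9e-08), Esm1, a secreted proteoglycan of tip cells, 9.32-fold, the apelin receptor Aplnr 18.8-fold and Rgcc 8.34-fold. The netrin receptor Unc5b was the gene on the smaller side, lower by 1.00 (adjusted p = 0.00122). Of 12 arterial genes 7 were higher and 2 lower (median 1.10), with Efnb2, the arterial ephrin, 5.79-fold higher, the connexin Gja4 4.51-fold, Cxcl12 3.48-fold and Bmx 3.87-fold. On the smaller side were Mgp (-1.13) and Alpl (-1.38, adjusted p = 0.0232), and Alpl did not pass without positive array 1, 2 or 3 or negative array 1 or 4 (adjusted p = 0.0643 to 0.0839). Of 9 venous and venular genes 8 were higher (median 3.68). Vwf, the clotting factor carrier stored by endothelium, was 18.4-fold higher, the ephrin receptor Ephb4 4.48-fold, the prostaglandin transporter Slco2a1 12.8-fold and Lrg1 16.5-fold, while the venous factor Nr2f2 did not pass (0.26, adjusted p = 0.34). Dll4 and Bmx were dim in Tom+/Pecam1- cells (means of 4.80 and 4.54), so their folds are poorly measured on that side.

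Genes by which capillaries handle fatty acids were also higher, 14 of 17 tested with 1 lower (median 2.40). Gpihbp1, which carries lipoprotein lipase across the capillary wall, was at 11.67, 11.38, 11.49 and 11.21 in Tom+/Pecam1+ repeats 1 to 4 and at 6.09, 6.19, 6.26 and 5.75 in Tom+/Pecam1- repeats 1 to 4, 41.1-fold higher (adjusted p = 1.2e-07). The fatty acid transporter Cd36 was 15.8-fold higher (11.32 ± 0.29 against 7.34 ± 0.20), the retinol binding protein Rbp7 27.7-fold, the water channel Aqp1 17.2-fold and Tcf15, a factor of capillary endothelium in muscle and heart, 9.88-fold. Tcf15 was dim in Tom+/Pecam1- cells (mean of 4.92), so its fold is poorly measured on that side. The transporter Slc27a4 was lower by 0.75 (adjusted p = 0.0167), with overlapping arrays, and did not pass without positive array 2 or 3 or negative array 3 or 4 (adjusted p = 0.0542 to 0.0666). Without positive array 4, 2 genes of this list were lower. Adipocyte genes moved both ways, 3 of 11 tested higher and 4 lower (median -0.22), where 15.9% and 20.0% of all genes were. The higher ones were Fabp4, Pparg (1.84) and the lipase Lipe (1.57), the lower ones included the fatty acid synthase Fasn (-1.63) and the insulin-regulated glucose transporter Slc2a4 (-0.80), and Adipoq, Lep, Cidec and Retn were too dim to be tested.

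Molecules with which venules bind leukocytes were high in Tom+/Pecam1+ cells, 6 of 9 tested with 1 lower (median 3.04). Sele, E-selectin, which activated endothelium displays, was at 10.29, 10.32, 10.41 and 9.31 in Tom+/Pecam1+ repeats 1 to 4 and at 5.24, 5.21, 5.14 and 5.13 in Tom+/Pecam1- repeats 1 to 4, 29.9-fold higher (adjusted p = 1.87e-06). The arrays of the 2 populations lay far apart. Selp, P-selectin, was 25.1-fold higher (9.97 ± 0.50 against 5.32 ± 0.56), the chemokine receptor Ackr1 of venules 19-fold (8.94 ± 0.63 against 4.69 ± 0.33), Icam1 4.65-fold and Cd34 8.22-fold. Ackr1 was dim in Tom+/Pecam1- cells, so its fold is poorly measured on that side. Vcam1 was the lower gene (-0.61, adjusted p = 0.0307). It did not pass with centred arrays (-0.50, adjusted p = 0.0548) or without positive array 1 or 3 or negative array 1, 3 or 4 (adjusted p = 0.0748 to 0.11).

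Lymphatic endothelial genes were not high with them. Of 8 tested 1 was higher and 4 lower (median -0.89). Prox1, the lymphatic master factor, which muscle progenitors also express, was lower in Tom+/Pecam1+ cells (5.92 ± 0.34 against 8.86 ± 0.30, 7.68-fold, adjusted p = 5.55e-05). Pdpn was 9.61-fold lower, Thy1 7.21-fold and Sema3d 2.6-fold, and fibroblasts express these 3 genes too. Mmrn1 was 2.79-fold higher. The hyaluronan receptor Lyve1 did not pass (7.71 ± 0.32 against 7.82 ± 0.30, adjusted p = 0.703).

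Notch receptors were divided between the populations. Notch4, the endothelial receptor, was 5.53-fold higher in Tom+/Pecam1+ cells (8.93 ± 0.30 against 6.47 ± 0.23), Notch2 was 6.83-fold lower (6.07 ± 0.14 against 8.85 ± 0.19) and Notch3, the receptor of pericytes, 6.88-fold lower (6.48 ± 0.43 against 9.27 ± 0.29, adjusted p = 1.49e-05). Jag2 was 5.81-fold higher beside Dll4. In all 4 of 8 tested receptors and ligands were higher and 2 lower. Among 12 tested targets and cofactors 2 were higher and 4 lower, where 15.9% and 20.0% of all genes were. Mfng, which modifies Notch receptors, was 8.75-fold higher and the feedback gene Nrarp 2.93-fold higher, while Heyl was 13.6-fold lower (5.75 ± 0.46 against 9.52 ± 0.18, adjusted p = 4.11e-06) and the DNA-binding partner Rbpj lower by 1.02. Without positive array 3 or negative array 4, 2 of these genes were lower. The median of these targets was -0.03 and took either sign over the alternatives (-0.18 to 0.10). Among 26 guidance genes 11 were higher and 12 lower: ephrin Efna1 was 8.23-fold higher, and Sema3c and the netrin Ntn4 were 11.3-fold and 11.7-fold lower.

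**Figure D2:**
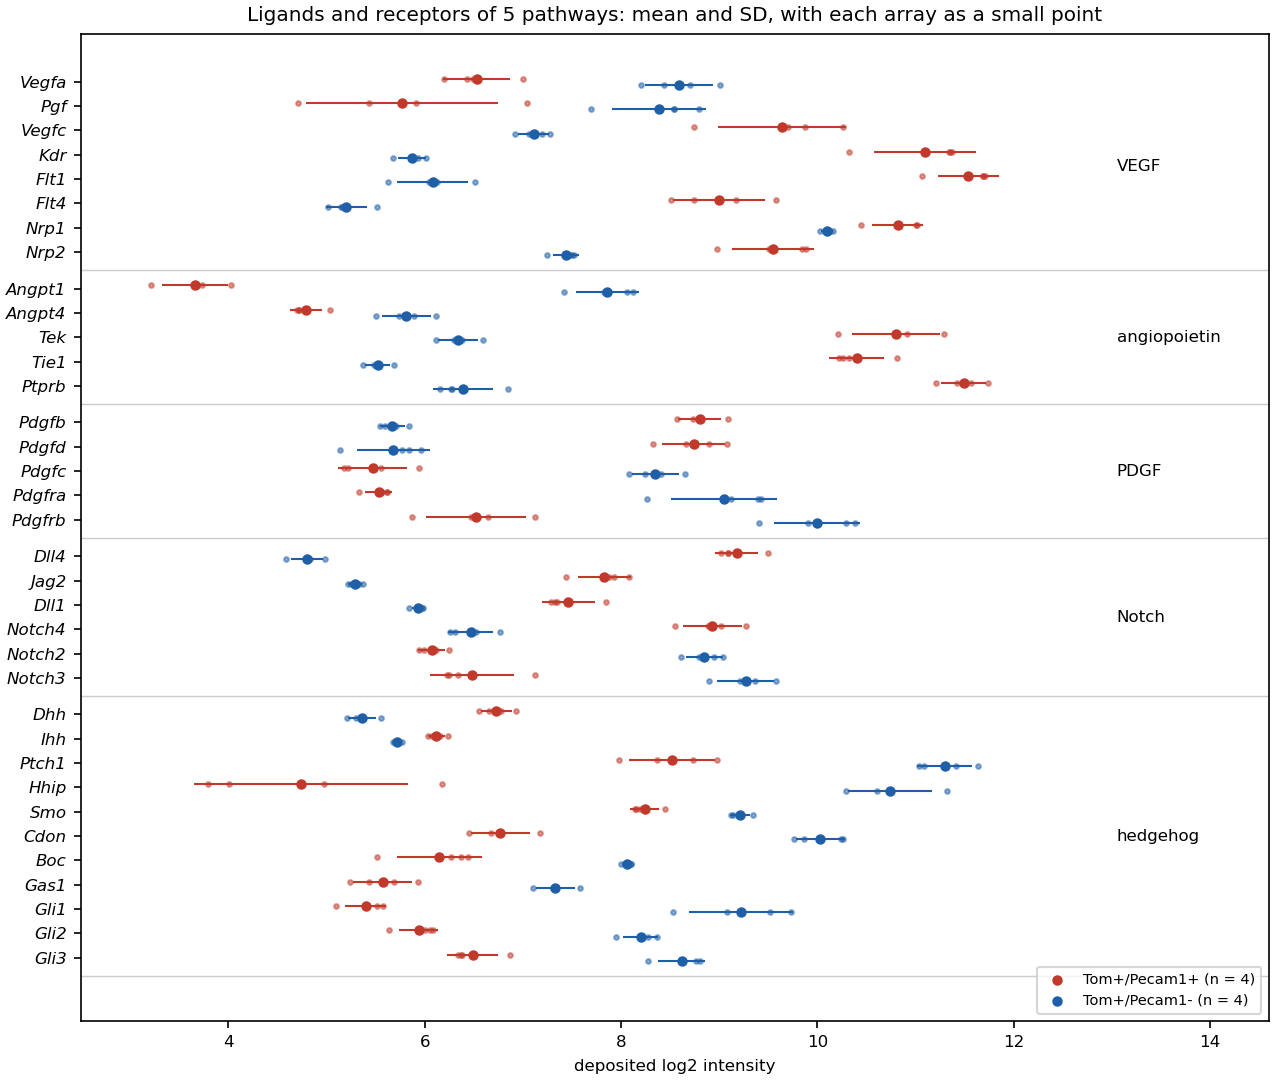
Mean and SD of the deposited log2 intensity (x axis) of 35 ligand, receptor and transducer genes of 5 pathways (y axis) in Tom+/Pecam1+ (red) and Tom+/Pecam1- (blue) tumor cells, with small points for the 4 arrays of each. VEGF and Tie receptors, Pdgfb, Dll4, Jag2 and Dhh are higher in red, and Vegfa, Pgf, Angpt1, Pdgfra, Pdgfrb, Notch2, Notch3, Ptch1, Hhip and Gli1 are higher in blue.

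Hedgehog target genes were low in Tom+/Pecam1+ cells. Both populations came from tumors of the same SmoM2 genotype and both carried the Cre mark. Whether SmoM2 was recombined and expressed in each population was not tested, and the mark does not show it. Hhip, the decoy that binds hedgehog ligands, had the most negative difference among the genes that could be named. It was at 4.97, 4.01, 3.79 and 6.18 in Tom+/Pecam1+ repeats 1 to 4 and at 10.74, 10.61, 10.29 and 11.32 in Tom+/Pecam1- repeats 1 to 4. Of the positive arrays 3 lay below the 40th percentile of their array, and repeat 4 lay above it, so the size of the difference (-6.00 with a standard error of 0.76, adjusted p = 0.000168) is uncertain on its low side. Gli1, the transcription factor that reports pathway activity, was at 5.40, 5.10, 5.58 and 5.51 and at 9.52, 9.08, 8.53 and 9.73 in the same order. Its populations did not overlap (14.1-fold lower, adjusted p = 1.24e-05). The receptor Ptch1 was at 8.73, 8.37, 7.98 and 8.98 and at 11.41, 11.04, 11.09 and 11.64, 6.86-fold lower (adjusted p = 0.000182). In the third tumor population, Tom-/Pecam1-, the levels were 7.85 ± 1.51 for Hhip, 7.22 ± 0.56 for Gli1 and 9.38 ± 0.70 for Ptch1, between the 2 marked populations. Marked muscle cells without SmoM2 had Gli1 at 5.01 ± 0.16 and Ptch1 at 7.95 ± 0.04 (SD, n = 3). These levels are not a like baseline and were not tested against the tumor levels. Array medians were 5.04 to 5.10 in the Tom+ muscle arrays and 5.41 to 5.44 in the marked tumor arrays, and tissue, age and strain differed too.

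Of 16 hedgehog target genes tested 12 were lower and 2 higher (median -1.54). Tcf21, a factor of head muscle and fibroblast precursors, was 22.4-fold lower, the forkhead factor Foxf2 6.05-fold, the ligand Wnt5a 8.56-fold and the long RNA Fendrr 3.18-fold. Their means in Tom+/Pecam1+ cells were dim (4.21 to 4.97). Ccnd2 and Foxc1 were the higher genes (0.65 and 0.46, adjusted p = 0.0238 and 0.0384), and neither call was firm. Ccnd2 did not pass without positive array 1, 2 or 3 or negative array 1 or 2 (adjusted p = 0.0719 to 0.0929), and Foxc1 when any 1 positive array or negative array 2 or 4 was left out (adjusted p = 0.0633 to 0.13). Mycn was too dim to be tested. The 6 receptors and co-receptors measured were lower, without exception (median -2.35): Smo by 0.97 (8.24 ± 0.15 against 9.21 ± 0.10, adjusted p = 0.000672, with a probe set that may or may not also read SmoM2), the co-receptors Cdon by 3.26, Boc by 1.92 and Gas1 by 1.75. Among 13 transducers 9 were lower and none higher (1 was higher without positive array 4), with Gli2 4.79-fold lower (5.94 ± 0.20 against 8.20 ± 0.18), Gli3 4.37-fold and the ciliary proteins Evc and Evc2 lower by 1.22 and 0.86. Sufu, the inhibitor of Gli proteins, did not pass (-0.09, adjusted p = 0.664). Genes of the primary cilium, where Smoothened signals, were slightly lower, 13 of 23 with 1 higher (median -0.48). Dync2h1, the motor of retrograde transport, was lower by 1.30 (adjusted p = 0.000172), Ift80 by 1.05 and Cep290 by 0.78, and Ift122 was the higher one (0.55, adjusted p = 0.0235), which did not pass without positive array 1, 2 or 3 or negative array 1 or 3 (adjusted p = 0.0567 to 0.0854).

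The ligands went the other way. Dhh, desert hedgehog, was at 6.93, 6.78, 6.55 and 6.66 in Tom+/Pecam1+ repeats 1 to 4 and at 5.36, 5.30, 5.55 and 5.21 in Tom+/Pecam1- repeats 1 to 4, 2.59-fold higher (adjusted p = 4.41e-05). Ihh differed by 0.41 (adjusted p = 0.0132), and Shh was too dim to be tested. Both levels of Dhh were modest and the positive arrays lay above the negative ones.

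The skeletal muscle programme was on the side of the Tom+/Pecam1- cells. Of 10 Pax and myogenic regulatory genes tested 9 were lower in Tom+/Pecam1+ cells (median -2.28). Pax7, the factor of muscle stem cells, was at 6.08, 5.73, 5.44 and 6.65 in Tom+/Pecam1+ repeats 1 to 4 and at 9.12, 8.98, 8.73 and 9.23 in Tom+/Pecam1- repeats 1 to 4, 8.22-fold lower (adjusted p = 0.000143). Repeat 4 was the highest of the positive arrays. Myf5 was 9.35-fold lower (5.96 ± 0.41 against 9.18 ± 0.43), Myod1 5.79-fold (5.43 ± 0.54 against 7.97 ± 0.21), Myog 7.19-fold (6.25 ± 0.49 against 9.09 ± 0.28) and Myf6 4.09-fold, and Eya4, a co-activator of homeobox factors, 27.7-fold lower. Eya4 and Myf6 were dim in Tom+/Pecam1+ cells (means of 4.40 and 4.68). Surface genes of muscle stem cells followed, 10 of 13 lower and none higher: Megf10 by 3.93, M-cadherin (Cdh15) by 2.81, Sdc4 by 2.98, Ncam1 by 4.36 and Fgfr4, a growth factor receptor also used to recognise rhabdomyosarcoma, by 2.69. Of 8 transcription factors of head mesoderm, from which neck and jaw muscles arise, 6 were lower, among them Tbx1 by 1.79 and Isl1 by 1.04, and Ebf1 and Ebf3 were higher (0.92 and 0.99).

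Genes of differentiating muscle were lower too. Of 25 genes of myoblast differentiation and fusion 19 were lower and 3 higher (median -1.51). Des, the intermediate filament desmin, was at 6.50, 6.16, 6.44 and 6.57 in Tom+/Pecam1+ repeats 1 to 4 and at 10.47, 10.34, 9.88 and 10.35 in Tom+/Pecam1- repeats 1 to 4, 14.3-fold lower (adjusted p = 5.11e-07). The RNA-binding protein Rbm24 was 7.65-fold lower, the receptor kinase Musk of the nerve-muscle junction 10.9-fold and myoglobin (Mb) 5.94-fold. The 3 genes on the other side were Mef2a, Mef2c and Mef2d (0.74, 1.26 and 0.47), factors that act in muscle and in endothelium. Of 30 sarcomere genes tested (34 measured) 28 were lower and none higher, with a median of -2.79. Titin (Ttn) was 16.6-fold lower (5.41 ± 0.32 against 9.47 ± 0.38, adjusted p = 6.02e-06), the fast myosin light chain Mylpf 15-fold (6.76 ± 0.28 against 10.66 ± 0.19), the troponin Tnnt3 10.7-fold and Myom1 8.46-fold. Embryonic myosin (Myh3), which rhabdomyosarcoma often expresses, was 12.2-fold lower (4.76 ± 0.42 against 8.37 ± 0.39). A reference list of rhabdomyosarcoma genes, which shares members with the lists above, had 10 of 14 tested genes lower and none higher (median -1.01), among them the receptor Fgfr1 by 2.17. All 15 genes of muscle calcium handling measured were lower (median -1.57), among them sarcolipin (Sln) by 3.00, the calcium pump Atp2a1 by 2.09 and the release channel Ryr1 by 2.18. With a filter at the 60th percentile 9 of these 15 genes were tested and lower.

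Promoters of these muscle genes were searched for a sequence that myogenic factors are known to bind, the E-box CAGCTG, which reads the same on both strands. Promoters of 300 bases around the start (RefSeq, build GRCm38.p6) were found for 23 of the 30 tested sarcomere genes, and 9 of them (39.1%) held it. Among the 25 genes of differentiation and fusion 19 had a promoter and 10 (52.6%) held it. Over all tested genes that had a promoter there the share was 18.9%. Des and Mylpf, lower genes described above, are shown because each holds the motif 1 time, with the E-box in capitals. They lie at chr1:75360042-75360341 (plus strand) and chr7:127211358-127211657 (plus strand), and are written from 5′ to 3′ on the strand of the gene.
Des: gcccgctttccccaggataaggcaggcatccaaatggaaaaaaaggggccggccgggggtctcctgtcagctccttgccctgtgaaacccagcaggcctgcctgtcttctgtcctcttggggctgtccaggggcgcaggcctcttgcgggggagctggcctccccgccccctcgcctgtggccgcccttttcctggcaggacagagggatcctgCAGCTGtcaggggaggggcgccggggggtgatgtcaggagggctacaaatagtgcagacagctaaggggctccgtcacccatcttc
Mylpf: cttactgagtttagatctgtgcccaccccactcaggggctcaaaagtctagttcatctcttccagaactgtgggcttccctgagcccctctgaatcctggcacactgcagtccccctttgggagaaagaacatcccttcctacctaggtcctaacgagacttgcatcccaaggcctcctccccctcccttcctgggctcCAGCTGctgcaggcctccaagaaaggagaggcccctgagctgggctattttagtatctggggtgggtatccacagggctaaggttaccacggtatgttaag
The letters AGGAAG, an ETS factor core, were searched in the same way on both strands for the endothelial lists. They stood in 7 of 11 promoters found for junction and surface genes (63.6%) and 5 of 12 for endothelial transcription factors (41.7%), against 37.7% of all tested genes with a promoter. A match describes the letters and shows no binding. The lists were short, and no test was made of the shares.

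Imprinted growth genes, which are expressed from 1 parental copy and are active in fetal and regenerating muscle, were lower in Tom+/Pecam1+ cells, 14 of 15 tested and none higher (median -1.73). Igf2, the growth factor, was at 7.39, 8.04, 7.46 and 8.51 in Tom+/Pecam1+ repeats 1 to 4 and at 10.99, 10.22, 10.71 and 10.86 in Tom+/Pecam1- repeats 1 to 4, 7.19-fold lower (adjusted p = 0.000126). The arrays did not overlap. The long RNAs Meg3 and Rian of the Dlk1-Dio3 locus were 9.27-fold and 13.2-fold lower, and the small RNA genes AF357355 and AF357425 of the same locus were 32-fold and 31.9-fold lower. Both small RNA genes were dim in Tom+/Pecam1+ cells (means of 3.72 and 4.47), so their folds are poorly measured on that side. Peg3 was 11.8-fold lower, Zim1 11.1-fold and Nnat 6.26-fold.

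MicroRNA genes were looked at after the values were seen. Of 161 tested 20 were higher (12.4%, against 15.9% of all genes) and 15 lower (against 20.0% of all genes), with a median of 0.08. Both counts lay below the shares over all genes. The probe sets read RNA of the gene or its precursor and not the mature microRNA. On chromosome 14, Mir17, Mir18 and Mir20a of the Mir17 to Mir92 cluster, a family known for its part in proliferation and vessel growth, were higher in Tom+/Pecam1+ cells. Mir17 was at 7.08, 8.18, 7.21 and 7.40 in Tom+/Pecam1+ repeats 1 to 4 and at 5.99, 5.62, 6.57 and 6.29 in Tom+/Pecam1- repeats 1 to 4, 2.54-fold higher (adjusted p = 0.00592). Mir18 was 2.37-fold higher (7.08 ± 0.38 against 5.84 ± 0.28, adjusted p = 0.00277) and Mir20a 2.77-fold (5.50 ± 0.60 against 4.03 ± 0.59, adjusted p = 0.023). Mir20a did not pass without positive array 2, 3 or 4 or negative array 2 or 4 (adjusted p = 0.0515 to 0.0871). Its Tom+/Pecam1- mean was dim, so its fold is poorly measured on that side. Mir19a was too dim to be tested, and the probe set for Mir19b-1 and Mir92-1 names several genes and was not used. Mir99a, on chromosome 16, was 4.31-fold lower (5.50 ± 0.14 against 7.61 ± 0.70, adjusted p = 0.00331). The 5p mature sequences of these 4 genes (RefSeq, GRCm38.p6) are printed with the seed, bases 2 to 8, in capitals, to show that miR-17-5p and miR-20a-5p share the seed AAAGUGC. Each gene also has a 3p mature sequence with another seed, which is not printed.
miR-17-5p: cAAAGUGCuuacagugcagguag
miR-20a-5p: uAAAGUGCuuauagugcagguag
miR-18a-5p: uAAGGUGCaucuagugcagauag
miR-99a-5p: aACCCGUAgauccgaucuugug

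Fibroblast and matrix genes were among the lowest of the Tom+/Pecam1+ cells. Of 21 fibro-adipogenic and fibroblast genes tested 16 were lower and 1, the transcription factor Tcf4 (0.67), higher (median -3.08, and 2 were higher without positive array 4). Collagen I (Col1a1) was at 6.79, 6.67, 6.81 and 7.02 in Tom+/Pecam1+ repeats 1 to 4 and at 9.77, 9.92, 10.04 and 9.88 in Tom+/Pecam1- repeats 1 to 4, 8.45-fold lower (adjusted p = 1.93e-07). The populations were separate by more than 2 log2 units in every repeat. The proteoglycan Lum was 30.7-fold lower (5.36 ± 0.41 against 10.30 ± 0.54), Dpt, which organises collagen fibrils, 30.6-fold (5.95 ± 0.59 against 10.88 ± 0.39), Col3a1 15.5-fold and Serpinf1 4.94-fold. Abca8a, a lipid transporter, was 29.3-fold lower. The interstitial matrix had 17 of 19 tested genes lower (median -3.65), among them Col6a1 by 4.83, Col12a1 by 4.85, Col14a1 by 4.15, Postn by 4.32 and Ogn by 4.74. Elastin (Eln) was the higher gene (0.71, adjusted p = 0.0229), and did not pass without positive array 2 or 3 or negative array 1, 2 or 4 (adjusted p = 0.0585 to 0.0805).

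Basement membranes, which endothelium and muscle fibres both make, differed by chain. Lama2, the laminin chain of muscle, was 22.3-fold lower in Tom+/Pecam1+ cells (6.15 ± 0.29 against 10.63 ± 0.18, adjusted p = 1.71e-07), and Lama3 was 17.1-fold higher (adjusted p = 1.54e-07). The vascular chain Lama4 was higher by 1.18 (adjusted p = 0.00335). Of 16 genes 5 were higher and 2 lower (15.9% and 20.0% over all genes), and 3 were higher without positive array 1 or without negative array 4. Lamb1 and the collagen IV chain Col4a1 did not pass (0.00 and 0.59, adjusted p = 0.996 and 0.124), and Col4a1 was higher without positive array 4 (0.95, adjusted p = 0.00152).

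Mesenchymal transcription factors and secreted factors of the bone morphogenetic protein (BMP) and TGF-beta families were lower as well. Of 11 mesenchymal genes 8 were lower and none higher, with Prrx1, a factor of limb and connective tissue mesenchyme, 9.44-fold lower (6.23 ± 0.14 against 9.47 ± 0.17, adjusted p = 1.54e-07), fibronectin (Fn1) 4.65-fold and N-cadherin (Cdh2) 7.2-fold. Of 16 BMP ligands and antagonists 13 were lower and none higher (median -1.34, and 1 was higher without positive array 4): Bmp5 was 14.7-fold lower (5.04 ± 0.23 against 8.92 ± 0.67), Gdf10 8.63-fold and the antagonist Chrdl1 11.1-fold. Of 6 TGF-beta family ligands 4 were lower and none higher (1 was higher without positive array 4 or negative array 1), Tgfb3 by 3.31, Tgfb2 by 2.75, Gdf11 by 1.55 and Inhba by 0.90. The receptors were divided. The endothelial receptor Acvrl1 and its partner endoglin (Eng) were 2.84-fold and 3.72-fold higher, while Bmpr1a was 5.12-fold lower and Acvr1 lower by 1.11. In all 4 of these 14 receptors and Id genes were higher and 7 lower.

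**Figure D3:**
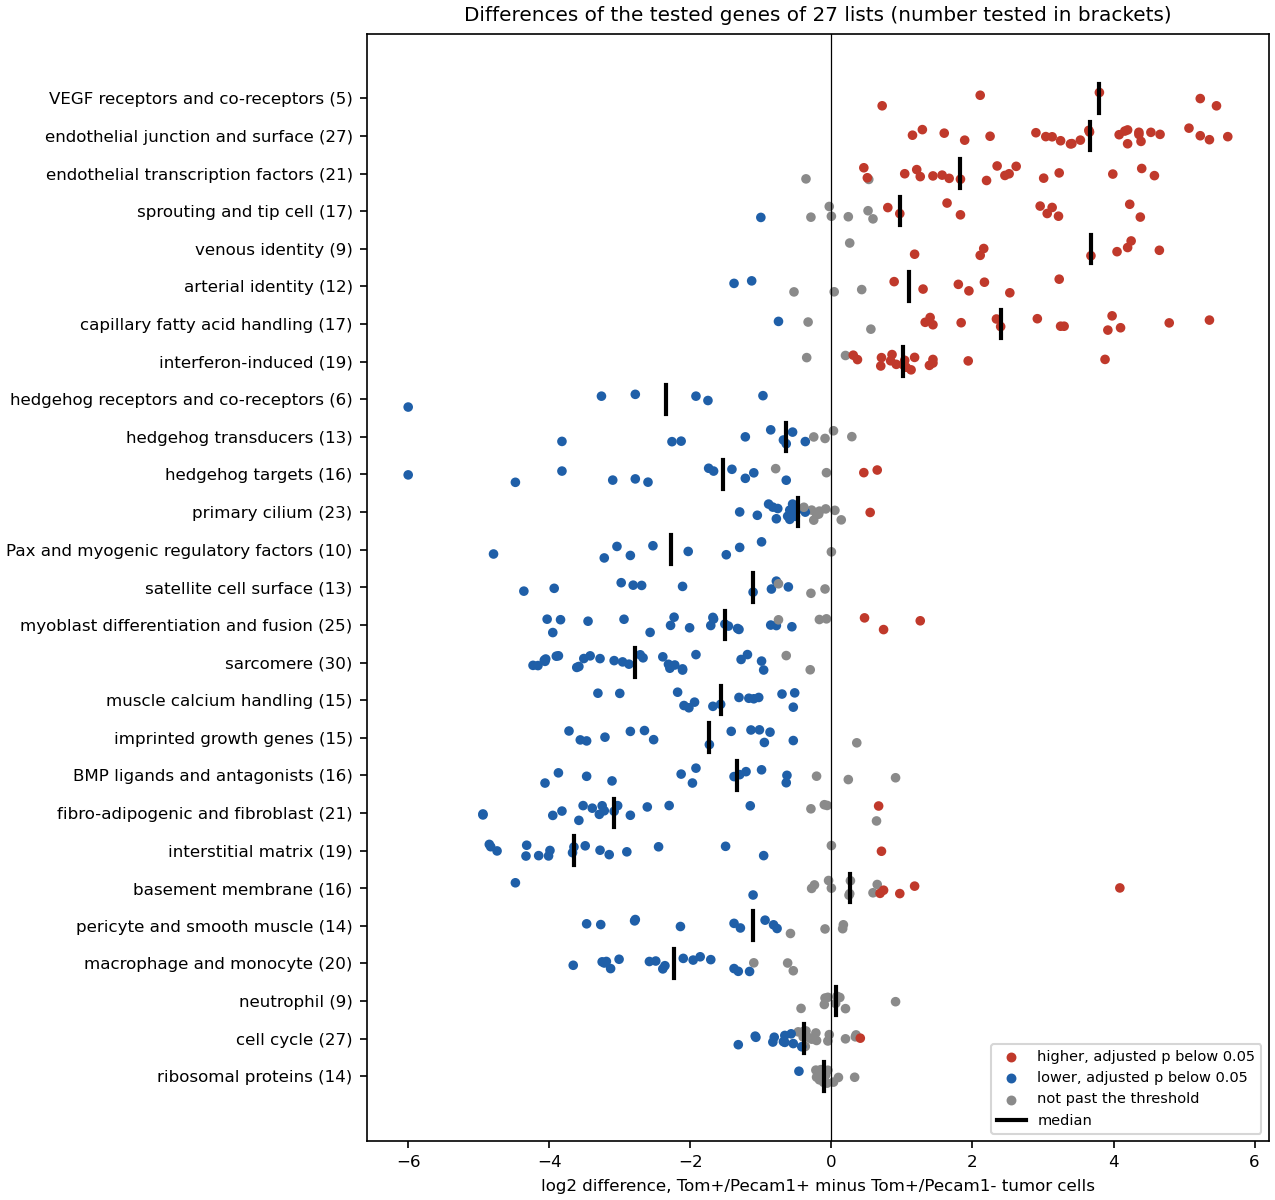
Log2 difference between Tom+/Pecam1+ and Tom+/Pecam1- tumor cells (x axis) of the tested genes of 27 gene lists (y axis, number tested in brackets), with red points for higher, blue for lower and grey for genes that did not pass an adjusted p of 0.05, and a black bar at the median of a list. The medians run from 3.80 for VEGF receptors to -3.65 for interstitial matrix, and ribosomal protein genes have a median of -0.11.

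Markers of other cell types were measured in both gates. The pericyte and smooth muscle list had 10 of 14 tested genes lower in Tom+/Pecam1+ cells and none higher (median -1.11). Smooth muscle actin (Acta2) was 6.89-fold lower (8.77 ± 0.18 against 11.55 ± 0.11, adjusted p = 4.83e-07), and Cnn1 9.63-fold. Of 8 tendon genes 6 were lower, Thbs4 by 3.66 and Fmod by 3.99, and of 6 tested Schwann and glial genes 4, S100b by 4.31, Erbb3 by 1.66, Pmp22 by 1.17 and Ngfr by 1.17, while Sox10, the defining factor of that lineage, was near the dim level in both (5.43 ± 0.15 against 5.37 ± 0.21).

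Macrophage genes separated the gates. Of 20 tested 17 were lower in Tom+/Pecam1+ cells and none higher (median -2.23), and with the day 48 repeats alone it was 20 of 20. The mean level of the 20 genes was 5.63 to 6.69 in the 4 Tom+/Pecam1+ arrays, 7.81 to 8.34 in the Tom+/Pecam1- arrays and 8.92 to 9.75 in the Tom-/Pecam1- arrays. Tyrobp, the signalling adaptor of myeloid cells, was at 6.34, 6.28, 5.67 and 6.14 in Tom+/Pecam1+ repeats 1 to 4 and at 9.15, 9.40, 9.47 and 9.28 in Tom+/Pecam1- repeats 1 to 4, 9.32-fold lower (adjusted p = 9.45e-07). Lysozyme (Lyz2) was 12.6-fold lower (7.29 ± 0.44 against 10.95 ± 0.17), the protease Ctss 9.52-fold and the complement chain C1qb 9.1-fold. The general leukocyte marker Ptprc was 7.21-fold lower (4.75 ± 0.47 against 7.60 ± 0.26, adjusted p = 8.03e-05). Of 10 pan-leukocyte genes 3 were lower (the others Cd53 by 2.44 and Laptm5 by 1.87), and 6 with the day 48 repeats alone or without positive array 4. The share of lower genes over all genes was 20.0% in the main fit. Of 6 class II antigen presentation genes tested 3 were lower, H2-Ab1 8.13-fold, H2-Aa 6.53-fold and H2-Eb1 5.17-fold. The part of macrophages in the differences of other genes between these populations was not tested.

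Neutrophil and lymphocyte genes were low in both marked populations, and none of 9 and of 6 tested passed in limma's test. The mean neutrophil level was 4.52 to 5.35 in Tom+/Pecam1+ arrays, 4.40 to 5.31 in Tom+/Pecam1- arrays and 7.35 to 9.07 in Tom-/Pecam1- arrays. No gene of either list had an unadjusted p below 0.05 (0 of each). 1 neutrophil gene passed, as lower, without negative array 1, and 1, as higher, in a fit of only the 8 arrays. Of 6 tested mast cell genes 2 were higher, Kit (7.78 ± 0.27 against 5.19 ± 0.22, 6.02-fold, adjusted p = 2.1e-06) and Hdc (6.81 ± 0.29 against 4.22 ± 0.29, 5.99-fold), while the granule proteases Cpa3, Cma1, Tpsb2 and Mcpt4 were dim in both populations, with means of 2.70 to 4.51, and did not pass. The platelet gene Pf4, which macrophages can also contain, was 7.73-fold lower (4.31 ± 0.35 against 7.26 ± 0.25) and Itga2b higher by 0.31 (adjusted p = 0.0384), which did not pass when any 1 array other than positive array 4 was left out (adjusted p = 0.0662 to 0.116). Ppbp, Gp5, Gp6, Gp9 and Clec1b were too dim to be tested.

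**Figure D4:**
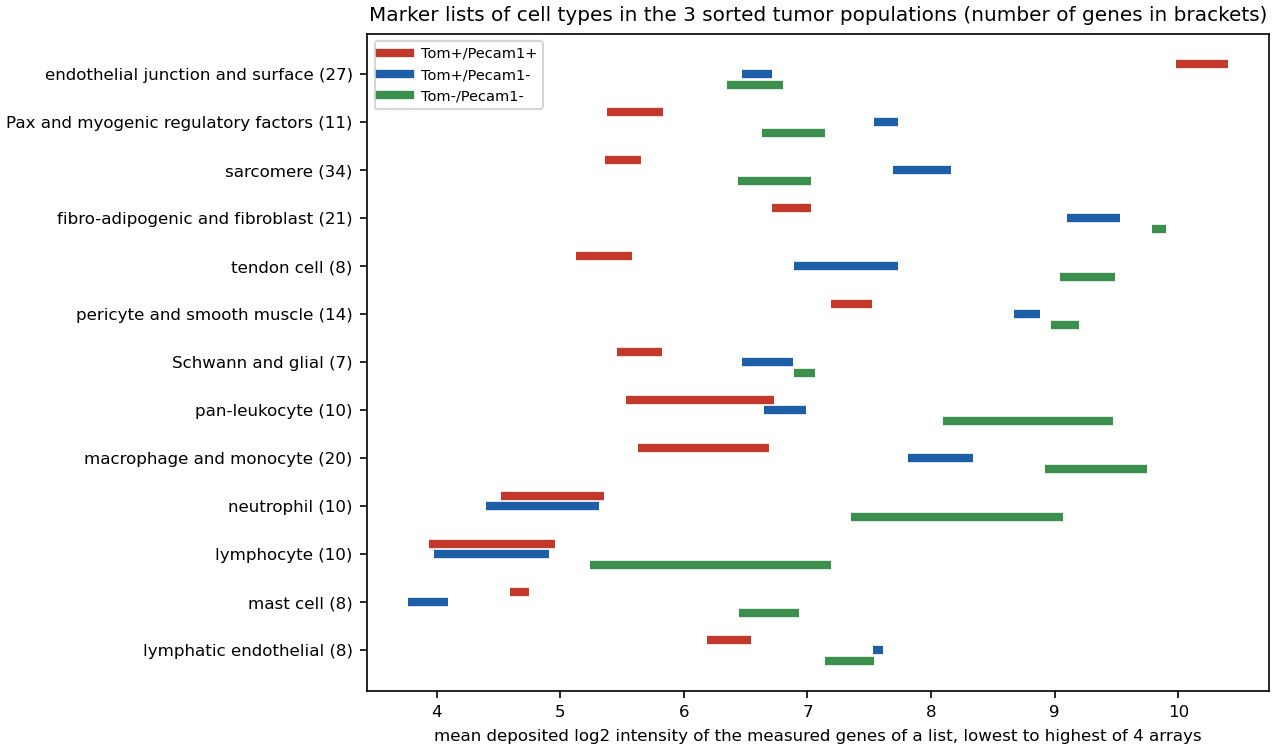
Range from the lowest to the highest array of the mean deposited log2 intensity (x axis) over the measured genes of 13 cell type lists (y axis, number of genes in brackets) in Tom+/Pecam1+ (red), Tom+/Pecam1- (blue) and Tom-/Pecam1- (green) tumor cells, 4 arrays each. Macrophage genes span 5.63 to 6.69 in red and 7.81 to 8.34 in blue, and neutrophil genes overlap in red and blue.

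Chemokine genes were lower on balance in Tom+/Pecam1+ cells, 11 of 18 tested with 2 higher (median -1.56). Ccl11, the eosinophil attractant of fibroblasts, was 15.5-fold lower (6.64 ± 0.72 against 10.60 ± 0.25, adjusted p = 4.46e-05), Ccl2 and Ccl7, attractants of monocytes, 4.55-fold and 5.88-fold and Cxcl14 9.26-fold. The higher ones were Cxcl12 and Cx3cl1 (1.80 and 0.47, adjusted p = 4.08e-05 and 0.0359). Cx3cl1 did not pass when any 1 array other than negative array 1 was left out (adjusted p = 0.0543 to 0.0917).

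Interferon-induced genes were higher in Tom+/Pecam1+ cells, 17 of 19 tested and none lower (median 1.02), and the same counts were found with the day 48 repeats alone. Gbp4, a guanylate-binding protein, was at 8.45, 8.77, 8.61 and 8.14 in Tom+/Pecam1+ repeats 1 to 4 and at 4.35, 4.39, 4.96 and 4.73 in Tom+/Pecam1- repeats 1 to 4, 14.8-fold higher (adjusted p = 1.12e-06). Its Tom+/Pecam1- values were dim, so the fold is poorly measured on that side. The other differences were smaller. Bst2, which tethers viruses to the cell, was at 8.11, 8.21, 8.12 and 8.15 and at 6.67, 6.58, 6.85 and 6.72 in the same order, 2.72-fold higher (adjusted p = 5.5e-06). Rsad2, an antiviral enzyme, was at 6.98, 7.48, 7.27 and 7.55 and at 5.48, 5.42, 5.27 and 5.33, 3.84-fold higher (adjusted p = 1.25e-05). The regulators Irf1 and Irf7 were higher by 1.13 and 1.18. In none of these 5 genes did the arrays overlap, which the choice of genes by their values favours. Over all genes 45.0% did not overlap.

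The motif GAAANNGAAA, the core of the element bound by interferon-activated factors, was searched on both strands of the same promoter windows. Of 19 tested interferon-induced genes 14 had a promoter in the table and 9 of them (64.3%) held the motif, against 3.6% of all tested genes with a promoter. Bst2 at chr8:71537423-71537722 (minus strand) and Rsad2 at chr12:26456403-26456702 (minus strand) are shown as genes with the motif, in capitals, in the build GRCm38.p6 (RefSeq) and from 5′ to 3′ on the strand of the gene.
Bst2: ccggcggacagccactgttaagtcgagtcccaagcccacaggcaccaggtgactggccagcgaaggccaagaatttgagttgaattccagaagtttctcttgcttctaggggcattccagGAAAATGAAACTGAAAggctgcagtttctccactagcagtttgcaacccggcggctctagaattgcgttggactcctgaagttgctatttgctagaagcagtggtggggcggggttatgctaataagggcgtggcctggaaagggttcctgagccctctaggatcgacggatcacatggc
Rsad2: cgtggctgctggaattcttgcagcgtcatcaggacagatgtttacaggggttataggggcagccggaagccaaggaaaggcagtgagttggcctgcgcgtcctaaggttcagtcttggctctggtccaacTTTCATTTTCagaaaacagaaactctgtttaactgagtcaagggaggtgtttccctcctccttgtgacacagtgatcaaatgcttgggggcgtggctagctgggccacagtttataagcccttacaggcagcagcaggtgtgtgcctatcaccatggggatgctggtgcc
In Bst2 the capitals mark 2 overlapping matches and in Rsad2 1 match on the other strand. A match describes letters and shows no binding, and interferon-induced genes are known to carry such elements.

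Cell cycle genes were in part lower in Tom+/Pecam1+ cells. Of 27 tested 11 were lower and 1, the thymidylate synthase Tyms (0.41), higher, with a median of -0.39. Mki67, the common proliferation marker, did not pass (7.96 ± 0.47 against 8.35 ± 0.28, adjusted p = 0.246), but was lower without positive array 4 (-0.74, adjusted p = 0.00182). The mitotic kinase Bub1b was 2.5-fold lower (5.91 ± 0.37 against 7.23 ± 0.22, adjusted p = 0.000612) and Top2a 2.11-fold lower (7.07 ± 0.33 against 8.14 ± 0.35, adjusted p = 0.00333). With the day 48 repeats alone, or without positive array 4, 18 genes were lower and none higher. Without positive array 1, 2 or 3 or negative array 1, 2 or 3 the count was 5 to 7, and Tyms did not pass without positive array 1, 2 or 4 or negative array 1, 2 or 4 (adjusted p = 0.0598 to 0.0886). Among cyclins and cell cycle inhibitors 5 of 13 were lower and 1, Ccnd2, higher (20.0% and 15.9% over all genes). Cdkn2b was 2.52-fold lower, Cdkn2a lower by 0.76 (adjusted p = 0.00244) and Cdk4 by 0.66. Ribosomal protein genes served as a reference for scale, and 1 of 14 passed (Rpl5, -0.46, adjusted p = 0.0448), which did not pass without positive array 2, 3 or 4 or negative array 2, 3 or 4 (adjusted p = 0.0532 to 0.145). Genes that respond to tissue dissociation had 3 of 17 higher and 4 lower (median -0.11), near the shares over all genes (15.9% higher and 20.0% lower). Egr2 was lower by 1.60 and Ier3 higher by 0.59, and 1 gene of this list was higher without positive array 1, 2 or 3 or negative array 1, 2 or 3.

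A second comparison asked whether the tumor difference was larger or smaller than that between Tom+ and Tom- cells of normal muscle. It subtracted the muscle difference from the tumor difference, over the 18 arrays, with the repeat number within a tissue as a block. Leaving out a muscle array also drops its pair, since 1 array is left in that block. The muscle cells were not sorted on Pecam1 and their Tom- cells were all other cells of the digest, so the 2 differences do not have like reference populations, and tissue, age, strain and genotype also differ. Of 14036 genes 1228 (8.75%) passed, 587 with a more positive difference in tumor (4.18%) and 641 with a more negative one (4.57%). The count was 678 to 761 without 1 of the 6 muscle arrays and 1620 without positive array 4.

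The difference of Cdh5 was 4.08 in tumor and 3.44 in muscle and that of Kdr 5.23 and 4.38, and neither pair differed past the threshold (adjusted p = 0.399 and 0.27, standard errors 0.41 and 0.43). Without positive array 4 both did, with a more positive difference in tumor of 1.02 for Cdh5 (adjusted p = 0.025) and 1.24 for Kdr (adjusted p = 0.0122). Of the 27 junction and surface genes 10 were more positive in tumor and 1, Eng, more negative, and 16 did not pass. Plvap, the diaphragm protein of fenestrated capillaries, was at 4.53 in tumor and 2.69 in muscle (adjusted p = 0.00628), and Cd34 at 3.04 and 0.61 (adjusted p = 0.0011). Ackr1 differed by 4.25 in tumor and by 0.34 in muscle (difference of 3.91 with a standard error of 0.46, adjusted p = 0.000395). Its muscle levels were 6.94 ± 0.18 in Tom+ and 6.60 ± 0.25 in Tom- cells. Sele differed by 4.90 and 1.45 (adjusted p = 0.00181) and Selp by 4.65 and 2.62 (adjusted p = 0.0142, and 0.0668 without repeat 3 of either muscle population). The muscle levels of Sele were 6.39 ± 1.38 in Tom+ and 4.95 ± 0.51 in Tom- cells. Nrp1 went the other way, with 0.72 in tumor and 2.97 in muscle (adjusted p = 0.000233).

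Several hedgehog genes had a more negative difference in tumor than in muscle. For Hhip it was -6.00 in tumor and -1.07 in muscle (difference of -4.93, standard error 1.04, adjusted p = 0.0116, and 0.0512 without repeat 2 of either muscle population), with muscle levels of 3.54 ± 0.24 and 4.61 ± 0.41 whose means lay below the 40th percentile of those arrays (4.71 to 4.89). Gli1 differed by -3.82 and -1.02 (adjusted p = 0.00266) and Ptch1 by -2.78 and -0.05 (adjusted p = 0.00481). The difference of Smo was -0.97 and -1.04 and did not pass (adjusted p = 0.908). Of the 16 target genes 7 were more negative in tumor and none more positive. Dhh was more positive, at 1.37 in tumor and -0.04 in muscle (adjusted p = 0.00129).

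Of the 10 Pax and myogenic regulatory genes tested, Myf6 was more negative in tumor (-2.03 against -0.49, adjusted p = 0.00154) and Msc more positive (-0.99 against -2.40, adjusted p = 0.00214, and 0.0518 when its probe sets were averaged). The next 4 did not pass, which does not show that they were alike. Pax7 differed by -3.04 and -2.93, Myf5 by -3.22 and -3.61, Myod1 by -2.53 and -2.46 and Myog by -2.85 and -4.00, with adjusted p of 0.939, 0.753, 0.942 and 0.147 and standard errors of 0.56, 0.57, 0.40 and 0.45. Of 30 sarcomere genes 10 were more negative in tumor and 1 more positive. Embryonic myosin (Myh3) was one of the more negative, at -3.61 in tumor and -0.27 in muscle (adjusted p = 0.00155). The muscle means of Myh3 (4.03 in Tom+ and 4.29 in Tom- cells) and of Myf6 (4.08 and 4.57) were dim for those arrays. The muscle differences of both genes, and so their differences from tumor, are poorly measured. Igf2 was another growth-related gene with a larger tumor difference, -2.85 against 0.24 (adjusted p = 0.00239). Of 19 interferon-induced genes 7 were more negative in tumor and none more positive. Of 20 macrophage genes 7 were more negative, and of 21 fibroblast genes 10 were more positive and 1 more negative.

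The 5 most positive differences of differences were those of genes that were low in both marked tumor populations and high in Tom- muscle cells. Kera, a proteoglycan of tendon and cornea, had the largest (5.35, adjusted p = 0.00362), from 4.64 ± 0.82 against 4.52 ± 0.56 in tumor and 4.32 ± 0.32 against 9.55 ± 0.56 in Tom+ and Tom- muscle cells. The others were the neutrophil gene S100a8 (4.28), Chodl (4.23), the peptidase Dpp4 of fibroblast progenitors (4.04) and the glial connexin Gjc3 (3.98). The 5 most negative, besides Hhip, were the latent TGF-beta binding protein Ltbp2 (-4.43, from -4.47 in tumor and -0.05 in muscle, adjusted p = 2.04e-05), Alpl (-4.38), the macrophage product Retnla (-4.36) and the protease Adamdec1 (-3.77). The muscle means of Adamdec1 (4.36 in Tom+ and 4.45 in Tom- cells) were dim for those arrays, so its muscle difference is poorly measured. The RNA of Alpl, which encodes an alkaline phosphatase, was higher in Tom+ muscle cells by 3.00 and lower in Tom+/Pecam1+ than in Tom+/Pecam1- tumor cells by 1.38.

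**Figure D5:**
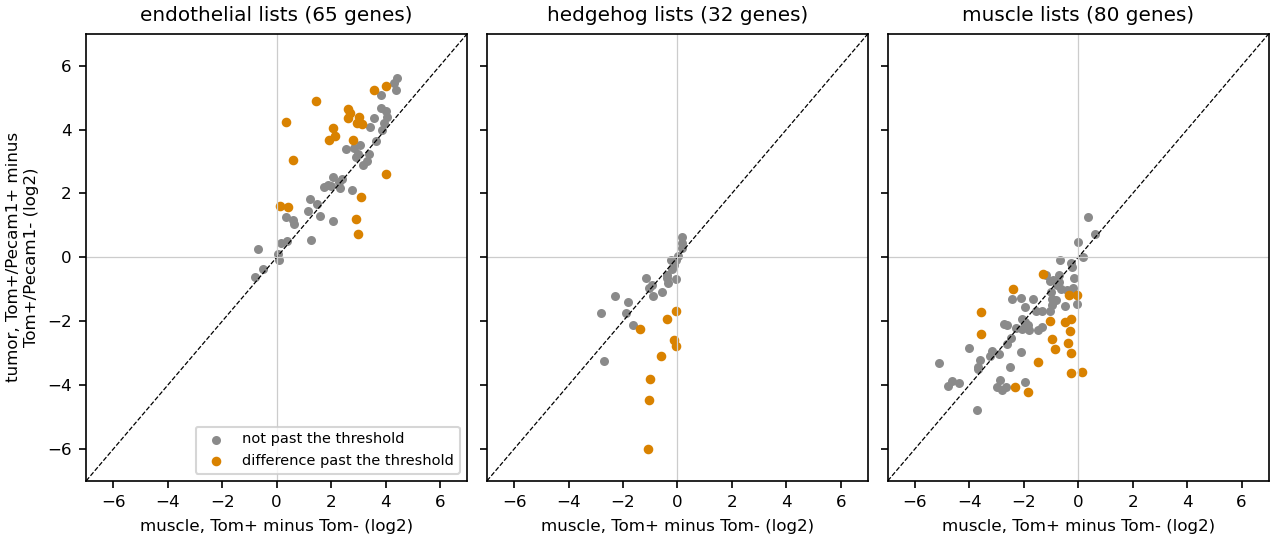
Log2 difference between Tom+/Pecam1+ and Tom+/Pecam1- tumor cells (y axis) against that between Tom+ and Tom- muscle cells (x axis) for the tested genes of endothelial, hedgehog and muscle lists, with a dashed line of equal differences. Orange points are genes whose difference between the tissues passed an adjusted p of 0.05. Cdh5 and Kdr lie above the line by 0.64 and 0.85, in grey as they did not pass, and 9 hedgehog genes lie below it in orange.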

How the data were processed

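The deposited log2 intensities came from 41345 probe sets of 18 arrays and come, per the submitters' processing notes, from RMA and Partek without a stated version. The array scans were not used here. Probe sets were named by GEO's platform annotation: 23521 had 1 gene symbol, 1814 several and 16010 none, and the last 2 kinds were left out. For each of 22180 genes the probe set with the highest mean was kept, and genes above the 40th percentile of an array in at least 4 of the 12 tumor arrays (14036) were tested. Limma 3.58.1 in R 4.3.3 fitted the 12 tumor arrays with a mean for each population and the repeat number as a block, and all 18 arrays for the comparison with muscle. P-values were adjusted by the Benjamini-Hochberg method over all tested genes, with a threshold of 0.05. In the deposited tumor values the mean of each repeat over the 3 populations is the same to within 7.67e-05 for every gene, so a correlation between arrays of one number cannot show pairing. The block was kept because that mean had been taken out, and single-array values depend on the other populations of the repeat. The labels do not say whether RNA of several animals was pooled. P-values measure the spread, between these samples, of differences within repeats, estimated over all populations fitted. The level of a whole repeat is not part of that spread. The script was tested on simulated data.

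Genes were named by a rule: 12 reference genes, the 10 largest and 10 smallest differences among genes whose arrays did not overlap, up to 5 genes with the smallest adjusted p of each list and those on its smaller side, and the 5 most positive and 5 most negative differences from muscle. Genes outside it, and the microRNA genes, were chosen after their values were seen. The comparison and the gene lists were chosen with earlier results of these data known. Promoters and mature microRNAs came from RefSeq tables of the mouse assembly GRCm38.p6. Alternatives covered the block, the filter, scaling, the choice of probe set, the variance model, the arrays fitted, the threshold and leaving out each array.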

Additional observations from a re-analysis of the deposited data

Results flagged for a closer look

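Among the 4 arrays of each marked population, 1 array stood far from the other 3 in 41 of 476 gene and population pairs (8.61%), by Dixon's criterion. Chance flags about 1 in 20 groups of 4 independent, normally distributed values. The genes here were largely chosen by their values, share lists, and had the repeat means taken out. The share of 8.61% therefore cannot show an excess over chance. Tom+/Pecam1+ repeat 4, the day 38 array, was the far one in 15 of the 41, and Tom+/Pecam1- repeat 4 in 8. The gap as a share of the range is given after each gene. Tom+/Pecam1+ repeat 4 was the lowest array for Adgrl4 (0.855), Flt1 (0.969), Fn1 (0.913), Kdr (0.971), Myct1 (0.875), Pecam1 (0.907), Sele (0.891) and Selp (0.952). Tom+/Pecam1+ repeat 4 was the highest array for Cdh15 (0.878), Erbb3 (0.864), Laptm5 (0.871), Myog (0.865), Notch3 (0.876), Ryr1 (0.856) and Sema3c (0.910). Tom+/Pecam1+ repeat 1 was the highest array for Dll4 (0.854), Gli3 (0.925), Nos3 (0.840), Nrarp (0.867), Smo (0.839), Tie1 (0.831) and Zim1 (0.898). Tom+/Pecam1+ repeat 2 was the highest array for Angpt4 (0.939). Tom+/Pecam1+ repeat 3 was the lowest array for Mmrn1 (0.839). Tom+/Pecam1+ repeat 3 was the highest array for Lipe (0.895). Tom+/Pecam1- repeat 4 was the lowest array for Bmp5 (0.875), Fgfr1 (0.865), Gdf11 (0.884), Sufu (0.909), Tgfb3 (0.935) and Thbs4 (0.929). Tom+/Pecam1- repeat 4 was the highest array for Col4a1 (0.949) and Lamb1 (0.850). Tom+/Pecam1- repeat 1 was the lowest array for Bub1b (0.913), Icam1 (0.900), Nrp2 (0.852) and Vwf (0.885). Tom+/Pecam1- repeat 1 was the highest array for Evc2 (0.848). Tom+/Pecam1- repeat 3 was the highest array for Dpt (0.914), Lyz2 (0.971) and Sox7 (0.857). For Kdr that array was at 10.32 and the others at 11.34 to 11.37. For Laptm5, a membrane protein of leukocytes, it was at 5.79 and the others at 4.39 to 4.57.

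The difference between Tom+/Pecam1+ and Tom+/Pecam1- tumor cells was set against that between Tom+ and Tom- muscle cells by a contrast of both, and 23 of the 30 genes given with a difference from muscle passed in limma's test. More positive in tumor were Kera by 5.35, S100a8 by 4.28, Chodl by 4.23, Dpp4 by 4.04, Gjc3 by 3.98, Ackr1 by 3.91, Sele by 3.45, Cd34 by 2.42, Selp by 2.03, Plvap by 1.84, Dhh by 1.41 and Msc by 1.41. More negative were Hhip (-4.93), Ltbp2 (-4.43), Alpl (-4.38), Retnla (-4.36), Adamdec1 (-3.77), Myh3 (-3.34), Igf2 (-3.09), Gli1 (-2.80), Ptch1 (-2.73), Nrp1 (-2.25) and Myf6 (-1.55). The muscle cells were not divided by Pecam1, and the part of this in these differences was not tested.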

How the results depend on the processing

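The count of 5041 genes that differed between Tom+/Pecam1+ and Tom+/Pecam1- cells became 3346 at an adjusted p of 0.01 and 2203 where a 2-fold change was asked as well. Leaving out 1 array at a time gave 3968 to 5031 genes. Without the replicate block 6786 genes passed and with the block and only these 8 arrays 4993. Of the 238 genes given with a tumor difference and the 30 given with a difference from muscle, 222 results kept direction and side of the threshold under all alternatives run for them. Without the block, 3 crossed it. The 1228 genes whose difference departed from that of muscle became 530 at 0.01, 815 with a 2-fold change, 1947 with day 48 tumors alone and 2170 without the replicate block, and 678 to 1620 without 1 array. Fewer arrays or stricter thresholds account by construction for part of the lower counts, and for the rest the cause was not tested. Directions turned only for genes that did not pass. Sufu went to 0.02 with centred arrays. Kera, at 0.12, went to -0.07 with day 48 tumors alone and ranged from -0.46 to 0.50 without 1 array. In the same way Lyve1 ranged from -0.27 to 0.10 and Sox10 from -0.04 to 0.19, and the differences from muscle of Myod1 from -0.46 to 0.11, of Smo from -0.04 to 0.24 and of Pax7 from -0.54 to 0.16. Signal near background limits Hhip, Angpt1 and other genes that were dim in 1 population. It also limits the muscle differences of Hhip, Myh3, Myf6 and Adamdec1, whose means were dim in both muscle populations.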
